A study of Mus musculus with 4 samples.

Results

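Short-oligonucleotide arrays measure a transcript through probe sets, and a probe set whose oligonucleotides match several related genes reports their summed signal. The members described here are the bright probe sets of this kind. A probe set was taken when the platform annotation listed 2 or more gene symbols for it and its highest deposited intensity over the 4 arrays was above 1000. This gave 266 members among 45037 probe sets that are not controls, or 28.5% of the 932 probe sets with several symbols. Of the 34945 probe sets with 1 symbol, 14.6% passed the same brightness limit. The level of the members was used to choose them, so their brightness is a description and not a finding. A member bright in only some groups also had to differ between groups.

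The RNA came from epithelial cells cut by laser from frozen ileum and proximal colon of C57BL/6 mice. The animals were wild type controls with a microbiota or germ-free mice, which have none, and no allele or other treatment is named. Wild type colon, germ-free colon, wild type ileum and germ-free ileum were measured on 1 array each (4 arrays), with cells from 4 animals pooled into 1 RNA sample. The labels mention hematoxylin staining for the germ-free groups alone. With 1 array per group there is no replicate error, and no p-value can be given. The values printed are quantile-normalized intensities in arbitrary units, which differ slightly from the deposited ones used for choosing. Values under a floor of 62.45, the pooled median of all arrays, are treated as unmeasured, and a fold against such a value is an "at least". In bulk RNA, fewer cells of a type and less RNA per cell cannot be told apart.

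Shared probe sets arise in a few ways. A gene copied by retrotransposition leaves processed pseudogenes elsewhere in the genome that keep much of its transcript sequence, and ribosomal protein genes are known for having many. Tandem duplication leaves neighbouring families with similar coding sequence, such as alpha-defensins, class I major histocompatibility genes and small proline-rich proteins. Overlapping transcription units, such as a small RNA and its host, occupy the same stretch of the genome. In the gut epithelium such families include antimicrobial peptides, antigen presentation molecules and detoxifying enzymes.

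Among the 266 members, 199 paired a gene with a predicted gene, clone name or pseudogene. A further 48 had only symbols of the same stem, 17 had unlike names and 2 were a small RNA with its host. The 666 probe sets with several symbols that were not bright held 324, 208, 119 and 15 of these kinds. Their genes lay on different chromosomes for 163 members and with at most 10 genes between them for 49, whereas 121 and 301 of the others did so. By gene type, 140 members joined 1 protein-coding gene to at least 1 pseudogene, against 120 of the 666. Probe set names ending in _x_at, the suffix for oligonucleotides that may match unrelated transcripts, were held by 84 members (31.6%) and by 67 of the others (10.1%). The members carried 167 distinct combinations of symbols and 412 distinct symbols. The largest combination had 11 symbols, and 186 members had exactly 2. Near the brightness limit, the highest deposited intensities were 1003.46 for an Hba-a2;Hba-a1 set, 1005.34 for an Rpl31 set and 1008.41 for the Gm3776;Gsta2;Gsta1 set just inside. They were 959.64 for an Rpl15 set, 971.13 for an Rwdd1 set and 973.18 for another Snurf;Snrpn set just outside.

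Promoters of the genes behind some members were compared, although a probe set is shared through transcript sequence and not through promoters. The sequences are from RefSeq (GRCm38.p6), end at the base before the annotated start and are shown for 3 families whose values are given further on. The 300-base windows around the starts of Sprr2a1 and Sprr2a2 were identical, and Sprr2a3 shared a run of 272 bases with them, offset by 28. The 150 bases before Sprr2a1 lie at chr3:92215685-92215834 on the plus strand.
Sprr2a1: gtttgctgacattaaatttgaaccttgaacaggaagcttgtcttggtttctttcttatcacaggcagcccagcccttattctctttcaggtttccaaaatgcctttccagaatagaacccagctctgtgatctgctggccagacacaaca

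The windows of Defa21 and Defa22 were also identical, and Defa30, which belongs to the other alpha-defensin member, was 65.8% identical to them. Defa21 is at chr8:21025395-21025544 and Defa30 at chr8:21134500-21134649, both on the plus strand. Capitals mark TATAAA, which starts 31 bases before the annotated start of Defa21 and 61 before that of Defa30.
Defa21: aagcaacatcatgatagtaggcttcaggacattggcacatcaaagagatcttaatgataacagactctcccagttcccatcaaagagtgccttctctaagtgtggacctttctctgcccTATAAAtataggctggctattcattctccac
Defa30: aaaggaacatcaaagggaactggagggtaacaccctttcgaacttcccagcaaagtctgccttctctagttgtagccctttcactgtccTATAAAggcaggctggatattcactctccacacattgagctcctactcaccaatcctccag

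The class I genes H2-K1 and H2-D1 were 59.3% identical over the windows used here, with a shared run of 47 bases. For H2-K1 2 windows are listed, and the closer of them was 64.8% identical to that of H2-D1. H2-K1 is at chr17:34000348-34000567 on the minus strand and H2-D1 at chr17:35262874-35263093 on the plus strand. Capitals mark GAANNGAAA, read here on the other strand, starting 90 bases before the start of H2-K1 and 150 before that of H2-D1. Its letters were chosen to fit H2-K1, so the match there carries no weight. The bases on either side of it are the same in H2-D1, so the match in H2-D1 carries none either.
H2-K1: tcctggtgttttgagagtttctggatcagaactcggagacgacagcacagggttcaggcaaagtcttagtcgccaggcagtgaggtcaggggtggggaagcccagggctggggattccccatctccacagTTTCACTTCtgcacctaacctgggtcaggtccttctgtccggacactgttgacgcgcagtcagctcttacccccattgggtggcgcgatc
H2-D1: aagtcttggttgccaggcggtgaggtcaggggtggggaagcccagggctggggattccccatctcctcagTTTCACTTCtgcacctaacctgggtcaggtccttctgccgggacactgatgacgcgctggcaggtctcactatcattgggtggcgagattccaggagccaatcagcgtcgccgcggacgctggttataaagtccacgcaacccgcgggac

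Over all 32851 promoter windows of 250 bases, searched on both strands, 12.4% held TATAAA and 6.31% held GAANNGAAA. The windows of Hba-a1 and Hba-a2 were 98.0% identical and those of Akr1c12 and Akr1c13 93.4%. Those of Ceacam1 and Ceacam2 were 47.2% identical and those of Acaa1a and Acaa1b 46.3%, close to the median of 46.0% between genes with unlike names. A promoter was listed for 208 of the 412 symbols.

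Germ-free colon against wild type colon had 0 members higher by 2-fold or more and 8 lower by as much. Over all 24189 measured probe sets, 1.89% were as much higher and 2.66% as much lower, and among bright probe sets with 1 symbol 1.32% and 2.25%. The members' 8 are 3.03% of the 264 measured, close to that background. Their median difference was -0.02 log2, against 0.02 for all probe sets. In ileum 0 members were higher and 5 of 266 lower, against 0.249% and 0.733% of all probe sets and 0.059% and 0.826% of bright sets with 1 symbol. The median was -0.02 against 0.02. Of the 232 members above 1000 on all 4 arrays, 1 was lower in germ-free colon (0.431%) and 0 in germ-free ileum. Among sets with 1 symbol above 1000 on all 4 arrays, 0.434% and 0.062% were as much lower. Quantile normalization gives the top ranks nearly equal values on all arrays. A member already above 9389.22 therefore cannot register a 2-fold rise, which held for 31 members in wild type colon and 37 in wild type ileum. On the deposited scale the highest germ-free difference among these was 0.12 log2 in colon and 0.07 in ileum.

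The lowest members were 3 probe sets annotated to immunoglobulin kappa genes (Igkv6-23, Igkv4-53, Igkv8-30, Igkj1 and Igkc), which encode variable, joining and constant parts of an antibody light chain. Set 1427455_x_at had an intensity of 2395 in wild type colon, 132 in germ-free colon, 4139 in wild type ileum and 682 in germ-free ileum. Set 1427660_x_at had 5532, 431, 6710 and 2022 in the same order, and set 1452417_x_at had 3543, 379, 4778 and 1656. All 3 were lower in the germ-free array of either region. The falls were 18.1-fold, 12.8-fold and 9.35-fold in colon and 6.07-fold, 3.32-fold and 2.89-fold in ileum. A probe set naming Igkv8-30 alone went from 1524 to 98.6 in colon and from 2706 to 446 in ileum. The summed intensity of the 7 matched of 8 plasma and B cell markers was 2182 in wild type colon, 604 in germ-free colon, 5410 in wild type ileum and 1160 in germ-free ileum. Except in germ-free colon, most of that sum was Jchain, the joining chain of secreted antibody (1549, 197, 4808 and 704). Of the measured markers, 2 of 3 were past 2-fold lower in germ-free colon and 1 of 4 in germ-free ileum. Derl3 read 356, 169, 196 and 160, and Mzb1, a plasma cell protein of the endoplasmic reticulum, read 149, 143, 239 and 186. Cd79b was above the floor in wild type ileum alone (97.1). Cd79a, Ms4a1 and Tnfrsf17 were below it on all 4 arrays, and the part of plasma cells in the difference was not tested.

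The gasdermin C genes, a tandem group whose family includes pore-forming proteins, were lower in germ-free colon as well. Set 1430641_at (Gsdmc2;Gsdmc4) had 3598 in wild type colon, 1094 in germ-free colon, 1572 in wild type ileum and 752 in germ-free ileum. Set 1419591_at (Gsdmc2;Gsdmc) had 4744, 1912, 1639 and 1061. Wild type colon was the highest array for both. The germ-free differences were 3.29-fold and 2.48-fold lower in colon and 2.09-fold and 1.55-fold lower in ileum. A probe set naming Gsdmc2 alone read 2013, 658, 512 and 366, a difference of -1.61 log2 in colon and -0.48 in ileum.

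Both Snurf;Snrpn members, which report an imprinted transcript encoding a small nuclear ribonucleoprotein, were low in germ-free colon alone. Set 1415895_at read 2488 in wild type colon, 861 in germ-free colon, 1539 in wild type ileum and 1505 in germ-free ileum, and 1415896_x_at read 2380, 709, 1430 and 1422. The colon differences were 2.89-fold and 3.36-fold lower, while those in ileum were -0.03 and -0.01 log2. Another set of the same genes, 1435716_x_at, just outside the brightness limit, read 1003, 616, 815 and 888, a colon difference of -0.70 log2. It was named for its nearness to that limit. Dimmer sets of these genes, 1421063_s_at, 1441905_x_at and 1460075_x_at, are not described here. A set naming Snrpn alone was below the floor on all arrays.

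The alpha-globin set 1428361_x_at (Hba-a2;Hba-a1), for the oxygen carrier of red blood cells, read 1029 in wild type colon, 205 in germ-free colon, 404 in wild type ileum and 337 in germ-free ileum. Wild type colon stood apart from the other arrays, and germ-free colon was 5.02-fold lower. A dimmer set of the same genes, 1452757_s_at, read 499, 121, 246 and 203. A further set of these genes under the brightness limit, 1417714_x_at, is not described here. The beta-globin set 1417184_s_at read 303, 83.0, 227 and 128. The 2 matched of 3 red blood cell markers were at or below the floor on every array (sum 69.3, 49.9, 50.0 and 71.9), and 1 of them, Hba-a1, is itself an alpha-globin gene. The 6 endothelial markers summed to 682, 337, 461 and 433, and Kdr, a receptor of vessel cells, went from 326 to 116 in colon (-1.49 log2). Pecam1 was below the floor on all 4 arrays. The part of blood or vessels in the difference was not tested.

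The 3 Sprr2a members report small proline-rich proteins, which are cross-linked into the barrier of epithelia. They were lower in germ-free ileum without reaching 2-fold. Set 1437258_at read 7972 in wild type colon, 7296 in germ-free colon, 2855 in wild type ileum and 1444 in germ-free ileum. Set 1450618_a_at read 10649, 10074, 7606 and 4032, and set 1439016_x_at 13677, 13409, 11115 and 7964. The ileum differences were -0.98, -0.92 and -0.48 log2, and the colon differences -0.13, -0.08 and -0.03. The smallest ileum difference belonged to the brightest set. The 10 fibroblast and smooth muscle markers summed to 4315, 3779, 8905 and 4186, and 5 of 9 measured were past 2-fold lower in germ-free ileum. Among them Rgs5 differed by -3.77 log2 and Vim by -1.21. Dcn, Tagln and Des were under the floor in germ-free ileum, so their falls are an "at least". Of the rest, Col1a1 differed by 0.16, Col1a2 by -0.01, Col3a1 by -0.82 and Acta2 by -0.37, and Myh11 was below the floor on all 4 arrays. The part of these cells in the members' ileum differences was not tested.

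The 3 class I major histocompatibility members were lower in germ-free arrays of both regions, and 0 of them reached 2-fold. Of their genes, H2-K1 and H2-D1 encode molecules that present peptides to T cells. H2-K1;H2-D1 read 2603 in wild type colon, 1794 in germ-free colon, 1714 in wild type ileum and 1087 in germ-free ileum. Its differences were -0.54 log2 in colon and -0.66 in ileum. H2-T9;H2-T22;H2-T10 differed by -0.38 and -0.37, and H2-T-ps;H2-T23 by -0.13 and -0.14. The brightest sets naming H2-K1 or H2-D1 alone differed by -0.35 and -0.52 in colon and by -0.43 and -0.59 in ileum. A dimmer shared set of the non-classical class I genes H2-Q9 and H2-Q7, not a member, read 381, 237, 274 and 107. It lies outside the naming rule and was taken from 12 shared H2 sets under the brightness limit. The rest of those sets are not described here. Psme2b;Psme2, a subunit of the proteasome activator that helps make such peptides, read 2434, 1789, 2390 and 1821, or -0.44 in colon and -0.39 in ileum. Psme1, the partner subunit, read 1739, 1812, 2523 and 2248, or 0.06 and -0.17. The ferritin light chain sets (Ftl1-ps2;Ftl1), for iron storage, differed by -0.71 and -0.86 in colon and -0.52 and -0.54 in ileum; they were picked out after their values were seen.

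The highest germ-free differences were in colon. Set 1433507_a_at of the nucleosome-binding protein Hmgn2 and its relatives read 847 in wild type colon, 1679 in germ-free colon, 1519 in wild type ileum and 1841 in germ-free ileum. Wild type colon was the low array, and the colon difference was 0.99 log2. Set 1435267_at (Gm40469;6820431F20Rik;2610005L07Rik) read 477, 921, 995 and 1010, a difference of 0.95. Sets naming 6820431F20Rik or 2610005L07Rik alone differed by 0.17 and 0.15 in colon. On the deposited scale both passed 2-fold. The 14 members of histones and nucleosome proteins were above 0 in colon for 10 and below 0 in ileum for 12, with medians of 0.12 and -0.08. They carry only 6 symbol combinations, with 5 sets of the H3f3a combination and 4 of Hmgb1, so they are not separate cases. Over all measured probe sets, 12531 of 24189 were above 0 in colon and 11141 of 23725 below 0 in ileum.

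Ileum against colon in wild type mice had 8 members higher by 2-fold or more and 10 lower of 266, or 3.01% and 3.76%. Over all probe sets 5.47% were higher and 5.49% lower, and among bright sets with 1 symbol 8.6% and 7.8%. In germ-free mice 10 members were higher and 8 lower, against 6.21% and 6.23% of all probe sets and 7.97% and 7.73% of bright sets with 1 symbol. The members' shares were thus lower than either background in both states. Among members above 1000 on all 4 arrays, 0.431% were higher and 2.586% lower in wild type ileum. In sets with 1 symbol passing that limit, the shares were 3.227% and 3.196%. In germ-free mice they were 0.431% and 2.155% against 2.358% and 3.072%. A member above 9389.22 in colon could not register a 2-fold rise, which held for 31 in wild type and 30 in germ-free mice. The 2 regional comparisons use separate arrays.

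The alpha-defensins are antimicrobial peptides that Paneth cells of the small intestine secrete. Set 1436857_at (Defa22;Defa21) read 14.3 in wild type colon, 20.6 in germ-free colon, 5721 in wild type ileum and 5249 in germ-free ileum, and set 1450631_x_at (Defa30;Defa24) read 24.6, 13.3, 8001 and 5578. Both were under the floor in both colon arrays. For Defa22;Defa21, ileum was at least 91.6-fold higher in wild type and at least 84.0-fold higher in germ-free mice. For Defa30;Defa24 it was at least 128-fold and 89.3-fold higher. Within ileum the germ-free differences were -0.12 and -0.52 log2. The 5 Paneth cell markers summed to 1036 and 850 in colon and to 17070 and 11230 in wild type and germ-free ileum, and Pla2g2a was below the floor throughout.

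Some members that encode enzymes also differed between regions. Pnp2;Pnp, purine nucleoside phosphorylase, read 873 in wild type colon, 862 in germ-free colon, 4688 in wild type ileum and 2869 in germ-free ileum, 5.37-fold and 3.33-fold higher in ileum. The glutathione transferase set Gm3776;Gsta2;Gsta1 read 160, 209, 801 and 1043, or 2.33 and 2.32 log2 higher in ileum. Acot10;Acot9, acyl-CoA thioesterases, read 519, 431, 1441 and 1072, or 2.78-fold and 2.49-fold higher. Each of these was higher on both ileum arrays than on either colon array.

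Colon was higher for the hydroxysteroid dehydrogenases Hsd3b6;Hsd3b3;Hsd3b2, at 2528 in wild type colon, 1811 in germ-free colon, 706 in wild type ileum and 617 in germ-free ileum. Mettl7a2;Mettl7a1, methyltransferase-like proteins, read 3066, 3047, 866 and 901. The kallikrein proteases Klk1b9;Klk1b22 read 3939, 3161, 1360 and 1226. In each, both colon arrays were above both ileum arrays, by 3.58-fold, 3.54-fold and 2.90-fold in wild type mice. The Ugt1a members report glucuronosyltransferases, transcripts with alternative first exons and common last exons. Their 3 sets were 0.82, 0.99 and 1.46 log2 higher in wild type colon and 0.90, 0.90 and 1.47 higher in germ-free colon. The 2 shared sets of Ceacam2;Ceacam1, adhesion molecules of the epithelial surface, differed less, by -0.48 and -0.81 log2 in wild type mice. The 8 sets naming Ceacam1 alone differed by -0.31 to -1.84 log2 there. A set naming Ceacam2 alone was below the floor on all 4 arrays.

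For some members the regional difference was unlike in size in the 2 states, which follows from the same 4 values as the germ-free differences and was not tested. The kappa sets were 0.28 to 0.79 log2 higher in wild type ileum and 2.13 to 2.37 higher in germ-free ileum. Mir5130;Kctd12, the set of a potassium channel-like protein gene that overlaps a miRNA, read 1501 in wild type colon, 1822 in germ-free colon, 776 in wild type ileum and 452 in germ-free ileum, 1.93-fold and 4.03-fold lower in ileum. Gm8615;Gnpda1, glucosamine-6-phosphate isomerase, read 1772, 1229, 2578 and 3246, 1.45-fold and 2.64-fold higher. The Sprr2a set 1437258_at was 2.79-fold lower in wild type ileum and 5.05-fold in germ-free ileum.

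The largest family was ribosomal proteins and translation factors, with 87 members in 49 symbol combinations. Among them 0 were past 2-fold in germ-free colon, and 1 was in germ-free ileum, with medians of -0.02 and -0.01 log2. The exception, 1455364_a_at (Gm7285;Rps7), read 392 in wild type colon, 433 in germ-free colon, 1004 in wild type ileum and 499 in germ-free ileum. Wild type ileum was its high array. A brighter set naming Rps7 alone read 8446, 7946, 10053 and 9159, a germ-free difference of -0.13 in ileum against -1.01. The brightest member, 1454859_a_at of Rpl23, read 18190 on both colon arrays and 18778 on both ileum arrays, equal within region because it held the same rank.

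Ribosomal members were slightly higher in ileum, 76 of 87 in each state, with medians of 0.21 and 0.21 log2 while those of all probe sets were close to 0. The wild type difference was smaller in brighter sets. Normalization leaves members above 9389.22 in wild type colon under 1 log2 of room to rise, and 18 of those 31 were in this family. The part of this limit in the trend was not tested. The median wild type difference was 0.62 for the 8 sets with a mean intensity up to 2000 and 0.46 for 15 up to 4000. It was 0.33 for 30 up to 8000 and 0.13 for 34 above. Spearman's rho with mean log2 intensity was -0.45 over the 87 sets, which share their arrays and often their genes. The Rpl31 sets differed little, at 0.04 for the dimmest, against the 0.62 of its band, and at -0.07 for the brightest. In the germ-free colon comparison the dimmest (930 to 550) differed by -0.76 and the brightest (13929 to 13235) by -0.07. Ankhd1;Eif4ebp3, in this family through its second symbol, stood apart, at 4670 and 5406 in colon and 1492 and 1724 in ileum.

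Probe sets with the same symbols, read on the same arrays, give a measure of the disagreement between probe sets. It holds neither the spread between mice nor that of capture, amplification and arrays. Over 54 combinations with 153 members, the pooled SD between sets was 0.20 log2 for germ-free colon, 0.17 for germ-free ileum, and 0.20 and 0.18 for the regional differences in wild type and germ-free mice.

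A probe set with 1 symbol was found for 113 members, in 134 combinations of member and gene. Where the member was past 2-fold, the set with 1 symbol went the same way, by any amount, for 5 of 5 in germ-free colon, 5 of 5 in germ-free ileum, 12 of 13 in wild type regional and 12 of 12 in germ-free regional comparisons. These are not independent, since they rest on 2, 3, 12 and 10 distinct sets with 1 symbol, and the 3 kappa members share 1. The SD of the difference between the shared and the single reading was 0.42, 0.40, 0.71 and 0.64 log2, over 111, 105, 107 and 113 measured combinations. A set with 1 symbol may still match other genes, since the symbol is an annotation.

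The readings part for some genes, here those differing by at least 1 log2, picked by that difference. Acaa1b;Acaa1a, peroxisomal thiolases, read 2537 in wild type colon and 2528 in wild type ileum, whereas a set of Acaa1b alone read 3945 and 503. A set of Hk1, hexokinase, read 3981 and 485, while the member that lists Hk1 with Rpl17 and its pseudogenes read 7730 and 8191. A set of Gp1bb, a platelet glycoprotein subunit, read 150 and 1403, while Septin5;Gp1bb read 3866 and 4604. Ankhd1 alone read 764 and 817, while Ankhd1;Eif4ebp3 read 4670 and 1492. In these 4 the shared set does not follow the named gene's own set. There were 2 such combinations in germ-free colon, 4 in germ-free ileum, 6 in wild type regional and 7 in germ-free regional comparisons. In the last, 1 more (Gsta2) is not settled, because its single reading lies under the floor in colon.

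Signal of control probe sets near the 5' end fell against that near the 3' end in germ-free arrays, by 0.48 log2 for Gapdh in colon and 1.10 in ileum, by 0.12 and 1.20 for Actb and by 0.43 and 0.28 for Pcx. The part of RNA length in the members' differences was not tested.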

How the data were processed

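Per the series' design text, about 16000 captured cells per group (about 4000 from each mouse) gave the RNA, of which 40 ng was amplified in 2 rounds. The authors deposited probe set intensity values on a linear scale, made with dCHIP 2004 per the series' design text; the sources used here give none of its options. The number of arrays (4, with 1 per group) limits the precision. All probe sets except controls were taken to log2, quantile-normalized over the 4 arrays, floored at the pooled median, and compared as differences with Python 3 and numpy. The members, families, marker lists and comparisons were chosen with earlier results of these data known. The brightness bands, the 1 log2 limit for differing readings, the promoters shown and their motifs were chosen after the values or sequences were seen. Named members are those past 2-fold in a germ-free comparison, the 10 largest per direction in each regional comparison, the 10 brightest, those nearest the limit, and every member of families with 2 to 12 members; for larger families, the 4 brightest and the 4 largest per germ-free comparison. Probe sets were named by platform annotation, and 688 of 747 identifiers were in the RefSeq table. Protein sequences were not used here. The steps were tested on simulated arrays. A first criterion failed there for 4-fold rises at the top ranks, which normalization compresses; such rises were then counted apart. Alternatives were other scalings, floors and member limits.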

Additional observations from a re-analysis of the deposited data

Results flagged for a closer look

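For 7 of the 89 named members measured in both regions (7.87%), the germ-free difference went opposite ways in colon and ileum, each by more than the SD between probe sets of the same symbols; with 1 array per group the difference between regions was not tested. The same held for 8.06% of bright probe sets with 1 symbol, 15.0% of all measured probe sets and 3.03% of all members. Ileum differences of Snrpd2 and Zfp706 pass the SD of 0.17 only narrowly. The colon minus ileum difference of these changes was 1.06 log2 for Mir5130;Kctd12 (0.28 in colon, -0.78 in ileum) and -0.86 for Gm8615;Gnpda1 (-0.53 and 0.33). It was 0.70 for the H3f3a set 1420376_a_at (0.51 and -0.19), whose sister sets 1423263_at and 1423262_a_at had -0.26 and -0.29, and 0.01 and -0.04. It was -0.60 for Gm5848;Snrpd2 (-0.43 and 0.17) and 0.56 for the Hnrnpa3 set 1451184_at (0.29 and -0.27). It was -0.49 for Gm29733;Cox14 (-0.28 and 0.22) and 0.39 for the Zfp706 set 1426678_at (0.21 and -0.17). Another Zfp706 set, 1456177_x_at, had the reverse signs (-0.13 and 0.18), and another Hnrnpa3 set, 1452774_at, was above 0 in both (0.08 and 0.16). A set naming Gnpda1 alone differed by -1.36 log2 in colon and 0.01 in ileum, so it did not show the ileum rise.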

How the results depend on the processing

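No paired analysis was possible because each group has 1 array. The scaling shifted the median of all probe sets in the colon germ-free comparison from 0.02 log2 to 0.12 on the deposited scale and 0.15 with median scaling, and the members at least 2-fold higher there became 2 in either (Hmgn2 and 2610005L07Rik); the 8 lower members were the same. With members above 500, those higher were 1 in germ-free colon, 1 in germ-free ileum, 14 in wild type ileum against colon and 17 in germ-free ileum against colon. With members above 2000, 4 were higher in wild type ileum. For members above 1000 on all 4 arrays, 1 was lower in germ-free colon and 0 in germ-free ileum; regionally 1 was higher and 6 lower in wild type, and 1 higher and 5 lower in germ-free mice. Without _x_at sets, 3 were lower in germ-free colon, 2 in germ-free ileum and 4 higher in germ-free ileum against colon. Without the immunoglobulin sets, an alternative chosen after seeing the data, 5 and 2 were lower. Other floors changed no count past 1.5 times, and no direction reversed. Quantile normalization hides rises of the brightest members, and signal near the floor limits the dim ones.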
